A study of Mus musculus with 8 samples.

Results

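The glucagon receptor gene Gcgr was examined in young mouse kidneys with 6 further genes for G protein-coupled hormone or calcium receptors of the renal tubule (Pth1r, Calcr, Casr, Avpr2, Avpr1a and Ptger3) and with Adcy6, which encodes adenylyl cyclase 6. These 8 genes were taken by symbol from the 47729 genes of the deposited tables, and all 8 were among the 18548 genes that passed the filter on low counts. The set was chosen by measured values: it was put together with the log2 fold changes between knockout and wildtype known, the low Gcgr level in knockout among them. The values of the 8 genes in that contrast are therefore given as a description, with no p-value.

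Libraries came from whole kidneys at postnatal day 8. The 4 knockout libraries are from Six2Cre+KCTD1fl/fl mice, in which a Cre recombinase driven by Six2 acts on the floxed Kctd1 alleles of nephron progenitors and so reaches the epithelium of the nephron, while the collecting duct arises from another lineage. The 4 wildtype libraries are from control littermates, and whether these carried Cre or floxed alleles was not given in the sources used here. Nor do the labels say that each library is from a separate animal, so all tests measure the spread between these libraries.

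Glucagon, parathyroid hormone, calcitonin and vasopressin act on tubule cells through receptors that couple to the stimulatory G protein and adenylyl cyclase, which makes cyclic AMP (cAMP). Cyclic AMP activates protein kinase A, and phosphodiesterases remove it. The calcium-sensing receptor and the prostaglandin E2 receptor EP3 can couple to the inhibitory G protein and so oppose cAMP formation. Glucagon, parathyroid hormone, calcitonin and vasopressin are all known to raise cAMP in parts of the distal nephron.

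Gcgr lies on chromosome 11 from 120530699 to 120538986 (GRCm38, plus strand). The sequence before its first exon is shown because Gcgr is the gene of the set with the widest gap between the groups, and because the product of Kctd1 is known as a repressor of the AP-2 family of transcription factors. The stretch is chr11:120530477-120530698 (GRCm38.p6, plus strand, RefSeq), 222 bases that end before both the GENCODE and the RefSeq start. Gm11789, an antisense gene on the minus strand, overlaps this stretch and the first part of Gcgr. Of the other genes, Pth1r lies on chromosome 9 from 110722085 to 110747145, Calcr on chromosome 6 from 3685680 to 3764714, Casr on chromosome 16 from 36493696 to 36562141 and Adcy6 on chromosome 15 from 98589973 to 98610076, all on the minus strand. Avpr2 lies on chromosome X from 73892102 to 73895502, Avpr1a on chromosome 10 from 122448499 to 122453452 and Ptger3 on chromosome 3 from 157566892 to 157645888, all on the plus strand. Annotated genes on the opposite strand overlap Pth1r (Myl3), Avpr2 (L1cam and Arhgap4), Avpr1a (Gm48877) and Adcy6 (Gm29331).

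Gcgr: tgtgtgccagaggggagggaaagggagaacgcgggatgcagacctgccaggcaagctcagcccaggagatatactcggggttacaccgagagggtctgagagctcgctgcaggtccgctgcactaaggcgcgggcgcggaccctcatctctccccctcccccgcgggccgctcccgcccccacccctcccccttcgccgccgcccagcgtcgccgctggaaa

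The letters are in lower case throughout because no searched motif was found in them. Searched on both strands in the 250 bases before each RefSeq start were the AP-2 motif GCCNNNGGC, the cAMP response element TGACGTCA and its half-site TGACG, which the full element contains. Of 32851 mouse starts, 13.7% held the AP-2 motif, 1.55% the full element and 17.8% the half-site. The Gcgr window held 0 of each and had a GC content of 70.4%, against a median of 52.4% over all starts. Of the 8 genes 7 had an entry in the RefSeq table, with 10 starts in all. The AP-2 motif was found at 1 of the 3 Pth1r starts, and the half-site at 1 Pth1r start, both Calcr starts and the Avpr1a start.

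Read depth was similar in both groups, with 14457760 to 20066225 counts in the knockout and 14957478 to 20741076 in the wildtype libraries. Kctd1, the deleted gene, measured 22.4 to 25.8 CPM in knockout against 28.9 to 32.6 CPM in wildtype, where CPM is the count divided by the library total after scaling between libraries. The groups did not overlap, where 2.06% of all tested genes separated them with knockout lower. Whole-kidney RNA includes cells outside the Six2 lineage, and their part in the Kctd1 values was not tested. The log2 fold change of Kctd1 was -0.38, and at an adjusted p under 0.05 it was called with DESeq2 but not with edgeR. Knockout 2 had 5.39% of its counts on 1 ribosomal RNA row, the highest share of the 8, and its TPM values had a median log2 difference of -0.465 from the mean of the others. Abundant reads of Xist, which is transcribed from the inactive X chromosome of females, were found in knockout 2 and wildtype 3. Slc34a1 of the proximal tubule, at 1724 to 1810 CPM over the 8 libraries, fitted the tissue label. Markers of liver, pancreas, adrenal gland and fat are given below.

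Gcgr encodes the class B receptor for glucagon, best known from liver and present in the distal nephron. Gcgr read 14.1, 11.4, 12.9 and 9.81 CPM across knockout 1 to 4 and 26.7, 25.4, 23.8 and 26.5 CPM across wildtype 1 to 4. All 4 knockout values were lower than the lowest wildtype value. Mean levels were 12.1 ± 1.85 and 25.6 ± 1.36 CPM (SD, n = 4 per group), which puts the knockout mean at 47.1% of the wildtype mean. The log2 fold change was -1.09 ± 0.12 (SE). These values rest on 187 to 552 counts per library, where counting alone gives an error of up to 7.31%.

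Gcgr was the 1 gene of the 8 past the threshold of edgeR's quasi-likelihood test after Benjamini-Hochberg adjustment, where 0.0809% of all tested genes passed and 0.0485% passed as lower in knockout. It did not pass without knockout 2 and wildtype 3, the libraries with abundant Xist reads, where its log2 fold change was -1.10. The groups did not overlap for 2 of the 8, Gcgr below and Calcr above wildtype, where 4.03% of all tested genes separated the groups, 2.06% with knockout lower and 1.97% with knockout higher. Since the set was chosen with this contrast known, nothing is read from these counts. The 8 log2 fold changes had a median of -0.04, with 5 negative and 3 positive, and those of all tested genes a median of 0.00, with 49.7% negative.

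**Figure D1:**
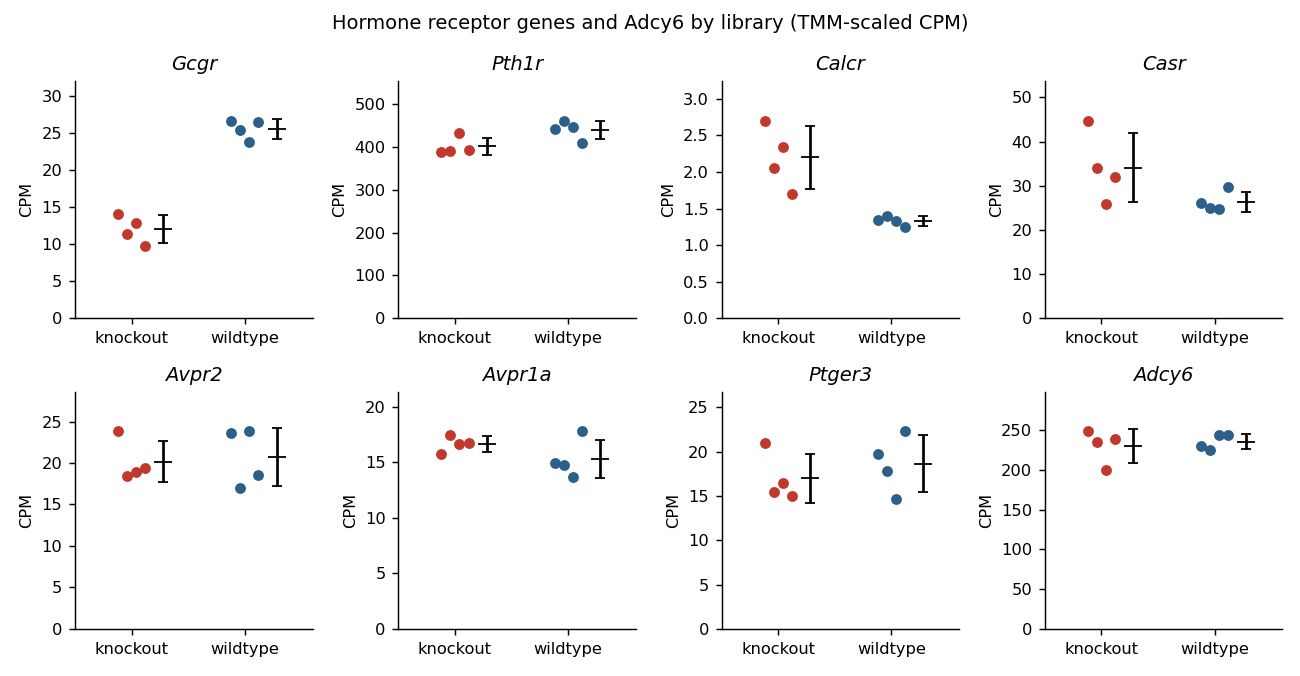
Each panel plots 1 gene in TMM-scaled CPM from 0, with 1 point per library (4 knockout in red, 4 wildtype in blue) and the mean ± SD beside them in black. Gcgr lies at 9.81 to 14.1 CPM in knockout against 23.8 to 26.7 CPM in wildtype, Calcr lies higher in knockout at low values, and the groups of the other 6 genes overlap.

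Of the other class B receptors of the set, Pth1r lay slightly lower and Calcr higher in knockout. Pth1r encodes the receptor for parathyroid hormone and parathyroid hormone-related protein, through which phosphate uptake is lowered in the proximal tubule and calcium uptake is raised in the distal tubule. Pth1r read 389, 390, 433 and 394 CPM across knockout 1 to 4 and 443, 462, 446 and 411 CPM across wildtype 1 to 4. In 3 knockout libraries it lay below all wildtype libraries, and knockout 3 lay above wildtype 4. Mean levels were 401 ± 20.8 and 441 ± 21.5 CPM (SD, n = 4 per group). The log2 fold change was -0.13 ± 0.06 (SE). Pth1r had the most counts of the 8 genes, 6191 to 9082 per library.

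Calcr encodes the calcitonin receptor, which in the kidney is known from the thick ascending limb and later segments. It was the weakest gene of the set, with 34 to 43 counts in each knockout and 21 to 27 in each wildtype library. Calcr read 2.70, 2.06, 2.35 and 1.69 CPM across knockout 1 to 4 and 1.34, 1.40, 1.33 and 1.25 CPM across wildtype 1 to 4. All 4 knockout libraries lay above the highest wildtype library. The log2 fold change was 0.72 ± 0.24 (SE) and did not pass the threshold, and at the lowest count of 21 counting alone gives an error of 21.8%. On TPM values with 1 added before the log the difference was 0.12, since most of such a low value is then the added 1.

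Casr encodes the calcium-sensing receptor, which in the thick ascending limb lowers salt and calcium uptake when blood calcium is high. Casr read 44.8, 33.9, 25.8 and 32.0 CPM across knockout 1 to 4 and 26.0, 25.0, 24.7 and 29.7 CPM across wildtype 1 to 4. In 3 knockout libraries it lay above all wildtype libraries, and knockout 3 lay within their range. The log2 fold change was 0.37 ± 0.15 (SE), and it was 0.21 without knockout 1, the library with the highest value. Knockout 1 also stood apart in Aqp2, the vasopressin-regulated water channel of the collecting duct, at 478 CPM against 149 to 202 CPM in the other 7 libraries. The part of such a difference in the Casr value was not tested.

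The vasopressin receptors overlapped between the groups. Avpr2 encodes the V2 receptor, through which vasopressin raises cAMP and water uptake in the collecting duct and salt uptake in the thick ascending limb. Avpr2 read 23.8, 18.4, 19.0 and 19.5 CPM across knockout 1 to 4 and 23.7, 17.04, 23.8 and 18.6 CPM across wildtype 1 to 4. Both groups held high and low libraries, and the log2 fold change was -0.04 ± 0.14 (SE). Avpr2 lies on the X chromosome. Its values in the libraries with abundant Xist reads were 18.4 CPM (knockout 2) and 23.8 CPM (wildtype 3), while the other 6 libraries ran from 17.04 to 23.8 CPM.

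Avpr1a encodes the V1a receptor, which couples to phospholipase C and calcium release and is known from intercalated cells and vessels. Avpr1a read 15.8, 17.5, 16.6 and 16.7 CPM across knockout 1 to 4 and 14.9, 14.8, 13.7 and 17.8 CPM across wildtype 1 to 4. The 4 knockout libraries lay above wildtype 1, 2 and 3 and below wildtype 4, so the groups overlapped only through wildtype 4. The log2 fold change was 0.12 ± 0.11 (SE), and it was 0.20 without wildtype 4.

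Ptger3 encodes the prostaglandin E2 receptor EP3, which opposes vasopressin by lowering cAMP in the thick ascending limb and collecting duct. Ptger3 read 21, 15.5, 16.5 and 15.0 CPM across knockout 1 to 4 and 19.8, 17.8, 14.6 and 22.3 CPM across wildtype 1 to 4. The lowest and the highest library were both wildtype, and the log2 fold change was -0.14 ± 0.15 (SE). Adcy6 encodes a cyclase that calcium inhibits and that is known to carry much of the vasopressin signal in the tubule. Adcy6 read 249, 235, 200 and 239 CPM across knockout 1 to 4 and 231, 226, 244 and 244 CPM across wildtype 1 to 4. Both extremes were knockout libraries, at a log2 fold change of -0.03 ± 0.08 (SE).

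Levels of the 8 genes were compared with each other in TPM, in which counts are divided by transcript length and scaled to one total per library. Pth1r stood highest in wildtype kidneys at 116 ± 1.35 TPM, above 94.5% of the tested genes. It was followed by Adcy6 at 20.7 ± 1.52, Avpr2 at 10.9 ± 1.89, Gcgr at 7.64 ± 0.63 and Ptger3 at 4.57 ± 0.95 TPM (SD, n = 4 per group). Avpr1a at 3.20 ± 0.49 TPM and Casr at 3.18 ± 0.41 TPM came next, and Calcr was last at 0.210 ± 0.0049 TPM. In wildtype the ranges of neighbours in this order overlapped for Ptger3 with Avpr1a and for Avpr1a with Casr, and for no other neighbours. The ratio of neighbours was widest between Casr and Calcr, at 15.1 in TPM.

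The place of Gcgr in this order differed between the groups. In wildtype it lay above Ptger3 in all 4 libraries. In knockout it measured 3.28 ± 0.70 TPM (SD, n = 4), after Ptger3 at 3.79 ± 0.90 and Casr at 3.75 ± 1.06 TPM and beside Avpr1a at 3.15 ± 0.37 TPM. The ranges of these neighbours overlapped in knockout, but within each of the 4 knockout libraries Gcgr lay below Ptger3. Ptger3 lay above Casr in 1 of them, Casr above Gcgr in 3 and Gcgr above Avpr1a in 2, so those orders are not resolved. Pth1r, Adcy6, Avpr2 and Calcr kept their places, and no range of theirs overlapped with a neighbour in either group.

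**Figure D2:**
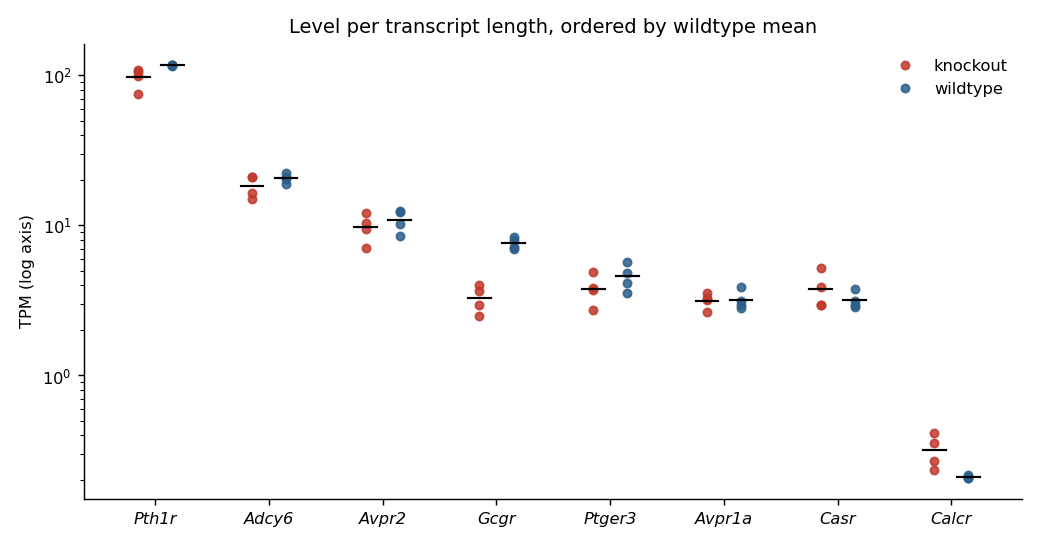
TPM on a log axis for the 8 genes in order of the wildtype mean, with 1 point per library (knockout in red, wildtype in blue) and a black line at each group mean. Gcgr is at 7.64 TPM in wildtype and at 3.28 TPM in knockout, among the knockout values of Ptger3, Casr and Avpr1a.

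Ratios of 2 genes within a library do not depend on the scaling between libraries. The log2 ratio of Gcgr to Casr, both in TPM, was -0.36, -0.26, 0.31 and -0.40 in knockout 1 to 4 and 1.35, 1.33, 1.25 and 1.15 in wildtype 1 to 4. Against Ptger3, Avpr1a, Avpr2 and Pth1r the log2 ratio differed by -0.97, -1.23, -1.06 and -0.96 (knockout minus wildtype), and the groups did not overlap for any of the 4. These ratios restate the low level of Gcgr and are no separate evidence of it.

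Segment genes were set beside Gcgr, with the choice made after their values were seen. Slc12a3 encodes the thiazide-sensitive cotransporter of the distal convoluted tubule. Its log2 ratio to Gcgr, written as Gcgr over Slc12a3 in TPM, was -3.41, -3.64, -3.11 and -3.86 in knockout and -3.17, -3.40, -3.40 and -3.33 in wildtype, and the groups overlapped. Egf, the epidermal growth factor gene, is active in the early distal convoluted tubule and the limb before it, and gave ratios of -0.75 ± 0.52 in knockout against -0.77 ± 0.19 in wildtype (SD, n = 4 per group), also with overlap. Against Slc12a1, the furosemide-sensitive cotransporter gene of the thick ascending limb, the log2 ratio was -5.01 ± 0.19 in knockout against -4.17 ± 0.04 in wildtype, with no overlap. Against Pvalb, which encodes parvalbumin of the early distal convoluted tubule, it was -0.96 ± 0.16 in knockout against -1.87 ± 0.19 in wildtype, with knockout higher and no overlap.

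**Figure D3:**
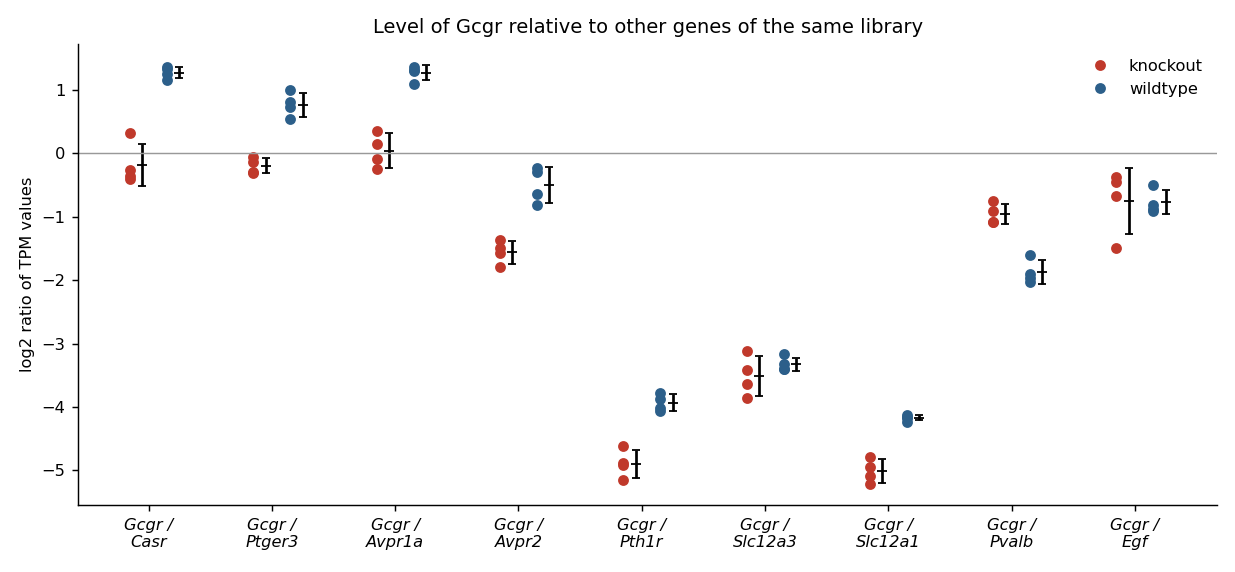
The y axis gives the log2 ratio of the TPM of Gcgr to that of the gene named below, with 1 point per library (knockout in red, wildtype in blue) and the mean ± SD in black. Knockout lies below wildtype for the receptors and Slc12a1, overlaps it for Slc12a3 and Egf, and lies above it for Pvalb.

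Marker lists show how the segments themselves compared. All 11 distal convoluted tubule markers had log2 fold changes below 0, at a median of -0.44, and their summed level was 821 to 951 CPM in knockout against 1226 to 1335 CPM in wildtype. Of them Pvalb and Slc12a3 fell (edgeR quasi-likelihood, Benjamini-Hochberg adjusted p = 3.6e-04 and 0.0063), and Slc12a3 did not pass in the TPM fits or without the 2 libraries with abundant Xist reads. At an unadjusted p under 0.05 the list had 8 of 11 lower, or 72.7%, against 6.18% of all tested genes. DESeq2 called 6 of the 11, and 0.669% of all its tested genes. The groups did not overlap for 7 of the 11, all lower in knockout, where 2.06% of all tested genes separated in this way. Of the 11, Kcnj16 and Sgms2 lay near 0, at -0.02 and -0.03. The marker lists were chosen with earlier results of these data known, so these shares and p-values are a description only. Pvalb measured 9.79 ± 1.68 CPM in knockout against 39.3 ± 4.31 CPM in wildtype, and Slc12a3 measured 247 ± 30.9 and 464 ± 23.9 CPM (SD, n = 4 per group). Of the 10 thick ascending limb markers 6 were negative and 4 positive, with a median of -0.10, and summed levels were 2743 to 3214 and 2767 to 2921 CPM. Its genes with the smallest p were Umod, for uromodulin, at 1206 ± 96.3 against 831 ± 69.1 CPM, and Ppp1r1a, a phosphatase inhibitor gene, at 40.8 ± 5.06 against 64.5 ± 5.52 CPM. Neither passed (edgeR quasi-likelihood, Benjamini-Hochberg adjusted p = 0.060 for both), while both passed with DESeq2 (adjusted p = 3.55e-06 for Umod and 8.84e-06 for Ppp1r1a), with limma-voom and with no filter on low counts. Of the 10, 3 lower and 1 higher had an unadjusted p under 0.05, and 2 lower and 1 higher passed with DESeq2. In whole-kidney RNA, fewer cells of a type and less RNA per cell cannot be told apart. The part of these segment levels in the Gcgr value was not tested.

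Of the lists for other segments, 0 of 12 proximal tubule, 0 of 8 principal cell, 0 of 7 intercalated cell and 0 of 6 connecting tubule markers passed, with 4, 0, 3 and 1 at an unadjusted p under 0.05 and 0 with DESeq2. Of all tested genes 6.18% had such a p. These markers were 3 higher and 1 lower in the proximal tubule, 3 higher in intercalated cells and 1 lower in the connecting tubule. Summed levels were 7280 to 8233 against 7235 to 7758 CPM in the proximal tubule and 765 to 1215 against 827 to 868 CPM in principal cells. In intercalated cells they were 412 to 458 CPM in knockout against 364 to 401.5 CPM in wildtype, without overlap and with 6 of 7 markers positive. Connecting tubule sums were 744 to 1288 against 1208 to 1453 CPM, with 3 negative and 3 positive. Podocyte markers were negative in 8 of 8, with a median of -0.26, summed levels of 1346 to 1531 against 1715 to 1755 CPM and 0 past the threshold with edgeR, 4 at an unadjusted p under 0.05 and 3 with DESeq2. Endothelial markers were also negative in 7 of 7, with a median of -0.15 and 0 past the threshold with edgeR or DESeq2. Their sums were 934 to 1025 against 1043 to 1106 CPM, without overlap. Markers of smooth muscle, mesangium and stroma were 5 negative and 3 positive, with a median of -0.09.

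Liver, where Gcgr is known to be abundant, was looked at through 10 markers, of which 6 were tested. Their summed level was 156 to 284 CPM in knockout against 142 to 177 CPM in wildtype, most of it from Ttr, the transthyretin gene. Ttr measured 160 ± 37.1 CPM in knockout against 87.5 ± 11.2 CPM in wildtype (SD, n = 4 per group), with all knockout libraries above all wildtype libraries. It did not pass (edgeR quasi-likelihood, Benjamini-Hochberg adjusted p = 0.211) but was the 1 liver marker called with DESeq2 (adjusted p = 3.6e-04). Of the 6, 2 had an unadjusted p under 0.05, or 33.3%, against 6.18% of all tested genes. The median log2 fold change of the 6 was 0.01, with 2 negative and 4 positive. Serpina1a, Fgb, Fga and Apoa2 read -0.16, -0.27, 0.02 and 0.01. Albumin, Alb, measured 31.7 CPM in knockout 1 and at most 1.56 CPM in the other 7 libraries. Gcgr was highest among the knockouts in that same library, at 14.1 CPM, and its log2 fold change without it was -1.17. The part of these markers in the Gcgr value was not tested. Among 6 pancreas markers Prss2 and Ins1 were at 0 counts in all libraries. The 6 summed to 33.1 to 48.2 CPM in knockout against 37.5 to 44.8 CPM in wildtype, nearly all of it from the elastase gene Cela1 at 40.2 ± 6.14 and 41.6 ± 3.43 CPM, and 7 adrenal markers summed to 4.00 to 8.91 and 6.82 to 8.01 CPM. Fat was present in both groups, with 6 markers that summed to 236 to 549 CPM in knockout against 252 to 431.5 CPM in wildtype. Among them Ucp1 ran from 15.1 to 127 CPM in knockout and from 30.9 to 114 CPM in wildtype. Of 5 tested fat markers 0 passed, and the part of fat in the Gcgr value was not tested.

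The rest of the pathway was followed through 10 lists by role, with 201 of 202 listed genes found and 173 tested. Of these 173, 1 was lower past the threshold, Slc12a3, and 0 were higher. At an unadjusted p under 0.05 the fit gave 15 lower and 7 higher, or 12.7%, where 6.18% of all tested genes had such a p. The median log2 fold change was -0.01, with 90 negative and 83 positive. With DESeq2 a second gene was called, Adcy1, where that tool called 0.669% of its tested genes.

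Transcripts of the hormones differed in level. Gcg for glucagon and Pth for parathyroid hormone were at 0 counts in all 8 libraries, Avp for vasopressin reached 3 counts and Calcb for the beta form of calcitonin gene-related peptide 3 counts in any library. Of 15 genes for ligands and prostaglandin synthesis, 8 were tested and 0 passed, with 0 at an unadjusted p under 0.05. Calca, the calcitonin gene, measured 1.52 ± 0.18 CPM in knockout against 1.57 ± 0.46 CPM in wildtype, with up to 42 counts, and Pthlh, for parathyroid hormone-related protein, had up to 20 counts. Adm and Adm2, for adrenomedullin and its relative, measured 8.48 ± 1.31 and 5.01 ± 1.53 CPM in knockout and 7.65 ± 0.84 and 4.70 ± 1.51 CPM in wildtype. The 2 with the smallest p were the prostaglandin synthesis genes Ptgs2, at 4.36 ± 2.75 CPM in knockout against 2.59 ± 0.89 CPM in wildtype, and Ptges, at 37.8 ± 4.77 and 44.9 ± 9.0 CPM (SD, n = 4 per group).

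Receptor partners and genes of desensitisation were all tested, with 0 of 18 past the threshold and a median of -0.10. At an unadjusted p under 0.05 there were 2, or 11.1%, against 6.18% of all tested genes. Ramp1, Ramp2 and Ramp3 encode membrane proteins that pair with calcitonin-type receptors and set which hormone they bind. They measured 1.36 ± 0.37, 55.2 ± 7.85 and 25.9 ± 3.59 CPM in knockout against 1.34 ± 0.56, 59.6 ± 2.80 and 28.4 ± 3.44 CPM in wildtype (SD, n = 4 per group), with overlapping values. The smallest p belonged to Grk3, a kinase gene that turns off active receptors, at 32.7 ± 2.19 against 41.1 ± 7.18 CPM, and to Slc9a3r2, a scaffold gene for membrane transporters, at 116 ± 6.18 against 129 ± 4.25 CPM.

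Other receptors gave no further call. Of 12 other class B receptor genes 6 were tested and 0 passed or had an unadjusted p under 0.05, and Gipr, for the receptor of the gut hormone GIP, measured 1.12 ± 0.31 CPM in knockout against 0.70 ± 0.22 CPM in wildtype (SD, n = 4 per group). Vipr1, for a receptor of vasoactive intestinal peptide, measured 0.566 to 1.66 CPM in 7 libraries and 29.0 CPM in wildtype 4, and its log2 fold change of -2.56 became 0.62 without that library. Of 47 other renal G protein-coupled receptor genes 36 were tested and 0 passed. At an unadjusted p under 0.05 there were 4 lower and 2 higher, or 16.7%, against 6.18% of all tested genes. Of the 36, 22 were negative and 14 positive, with a median of -0.06. Ptgfr, for the prostaglandin F receptor, had the smallest p of these at 9.79 ± 1.89 against 15.9 ± 4.57 CPM. Adra1a, for an alpha-1 adrenergic receptor, followed at 4.28 ± 0.61 against 2.90 ± 0.35 CPM, with every knockout library above every wildtype library.

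Among 7 tested cyclases beside Adcy6, Adcy1 had the lowest log2 fold change. Adcy1 encodes a cyclase that calcium and calmodulin stimulate. Adcy1 read 51.1, 49.2, 38.3 and 42.7 CPM across knockout 1 to 4 and 62.0, 68.1, 61.5 and 67.4 CPM across wildtype 1 to 4, with all 4 knockout libraries below all wildtype libraries. At a log2 fold change of -0.52 ± 0.10 (SE) it did not pass over all genes (edgeR quasi-likelihood, Benjamini-Hochberg adjusted p = 0.153) and passed with DESeq2 (adjusted p = 0.0015). Adcy2 measured 3.84 ± 0.25 CPM in knockout against 3.03 ± 0.27 CPM in wildtype (SD, n = 4 per group), with all 4 knockout libraries above all wildtype libraries. The groups thus did not overlap for 2 of the 7, 1 lower and 1 higher, where 4.03% of all tested genes separated them. The median of the 7 cyclases was 0.13.

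The lists of G proteins, protein kinase A and Epac, phosphodiesterases and CREB-related genes held 0 calls with edgeR or DESeq2. At an unadjusted p under 0.05 there were 2 G protein, 3 protein kinase A and Epac and 1 phosphodiesterase genes. These were 7.69%, 20% and 6.67% of the tested genes of their lists, against 6.18% of all tested genes. Of 26 tested G protein subunit genes, Gna11, for a subunit that couples to phospholipase C, measured 120 ± 26.7 against 87.2 ± 7.09 CPM. Gng4, for a gamma subunit, measured 24.3 CPM in knockout 4, 2.07 to 3.71 CPM in the other knockout libraries and 0.540 to 2.005 CPM in wildtype. Its groups did not overlap, and its log2 fold change of 2.71 was 1.28 without knockout 4. Of 15 protein kinase A and Epac genes the smallest p belonged to Pkig, for an inhibitor of protein kinase A, at 50.2 ± 6.04 against 62.2 ± 5.93 CPM, and to Rapgef4, for the cAMP-activated exchange factor Epac2, at 16.8 ± 6.14 against 26.4 ± 5.07 CPM (SD, n = 4 per group). Of 15 phosphodiesterase genes 4 were negative and 11 positive, with a median of 0.10. There Pde4b measured 24.5 ± 1.42 against 28.8 ± 2.09 CPM and Pde1c 8.45 ± 3.67 against 5.34 ± 1.40 CPM. Of 18 CREB factor and cAMP-induced genes, through which cAMP is known to act on transcription, 0 had an unadjusted p under 0.05 and the median was -0.01. Creb3l1, a transcription factor gene, measured 44.1 ± 4.11 against 40.3 ± 1.82 CPM and the clock gene Per1 33.4 ± 6.03 against 39.6 ± 8.32 CPM.

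**Figure D4:**
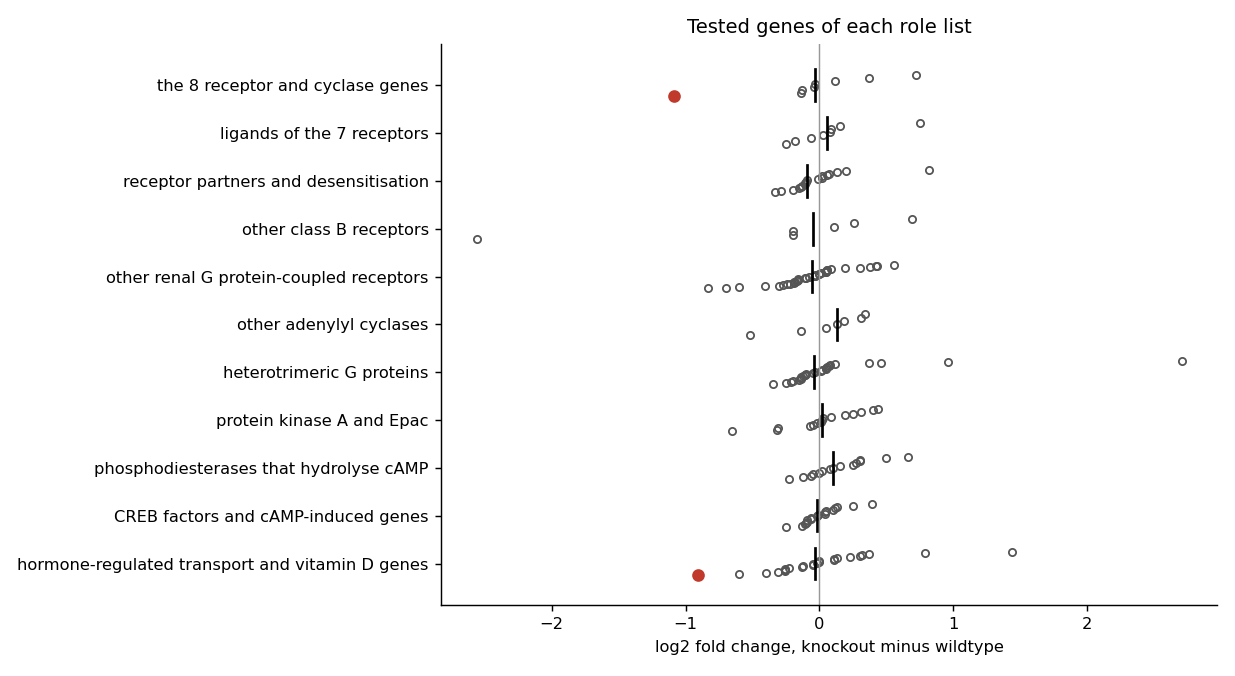
Each row is 1 list by role and each circle 1 tested gene at its log2 fold change (knockout minus wildtype), with a black bar at the list's median and filled red circles for genes past the threshold. The red circles are Gcgr at -1.09 and Slc12a3 at -0.91, and the medians of the 10 pathway lists lie from -0.10 to 0.13.

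Of 24 transport and vitamin D genes known to respond to these hormones, Slc12a3 was the 1 past the threshold, and the median was -0.04. At an unadjusted p under 0.05 the list had 5 lower and 2 higher, or 29.2%, where 6.18% of all tested genes had such a p. Beside Slc12a3 the lower genes were Slc12a1, Trpm6 for a magnesium channel, Scnn1a for a subunit of the epithelial sodium channel and S100g for a calcium-binding protein. Their log2 fold changes were -0.26, -0.60, -0.23 and -0.40, with overlapping groups. These 4 and the 2 higher genes were chosen after their values were seen. Slc12a3 and Trpm6 are also on the distal convoluted tubule marker list, Slc12a1 on that of the thick ascending limb and S100g on that of the connecting tubule. The share of this list thus partly repeats the segment values above. Of the higher genes, Cldn14, a claudin gene that the calcium-sensing receptor is known to raise, measured 0.86 ± 0.19 CPM in knockout against 0.31 ± 0.16 CPM in wildtype, with no overlap and at most 22 counts in a library. Cyp27b1, for the vitamin D activating enzyme that parathyroid hormone raises, measured 14.8 ± 4.36 and 8.51 ± 2.89 CPM, with overlap. Neither passed (edgeR quasi-likelihood, Benjamini-Hochberg adjusted p = 0.547 and 0.645).

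The neighbours of Gcgr on chromosome 11 were examined next. Within 100 kb 26 annotated genes were in the files and 21 were tested, with a median log2 fold change of -0.03 and 0 past the threshold. Of the 21, 3 had an unadjusted p under 0.05, where 6.18% of all tested genes had such a p. Gm11789, the antisense gene, measured 0.56 ± 0.35 CPM in knockout against 1.32 ± 0.65 CPM in wildtype (SD, n = 4 per group), with overlapping groups and at most 40 counts. The library kit keeps strand, but whether the counting used it was not given in the sources used here, so reads of Gcgr and Gm11789 may not be fully separate. Npb, which encodes neuropeptide B, lies beyond the other end of Gcgr and read 19.4, 11.4, 14.9 and 11.6 CPM across knockout 1 to 4 and 5.97, 5.55, 6.53 and 4.47 CPM across wildtype 1 to 4. All 4 knockout libraries lay above all wildtype libraries, at a log2 fold change of 1.34 ± 0.20 (SE), which missed the threshold (edgeR quasi-likelihood, Benjamini-Hochberg adjusted p = 0.0542) and passed with DESeq2 (adjusted p = 1.4e-06).

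**Figure D5:**
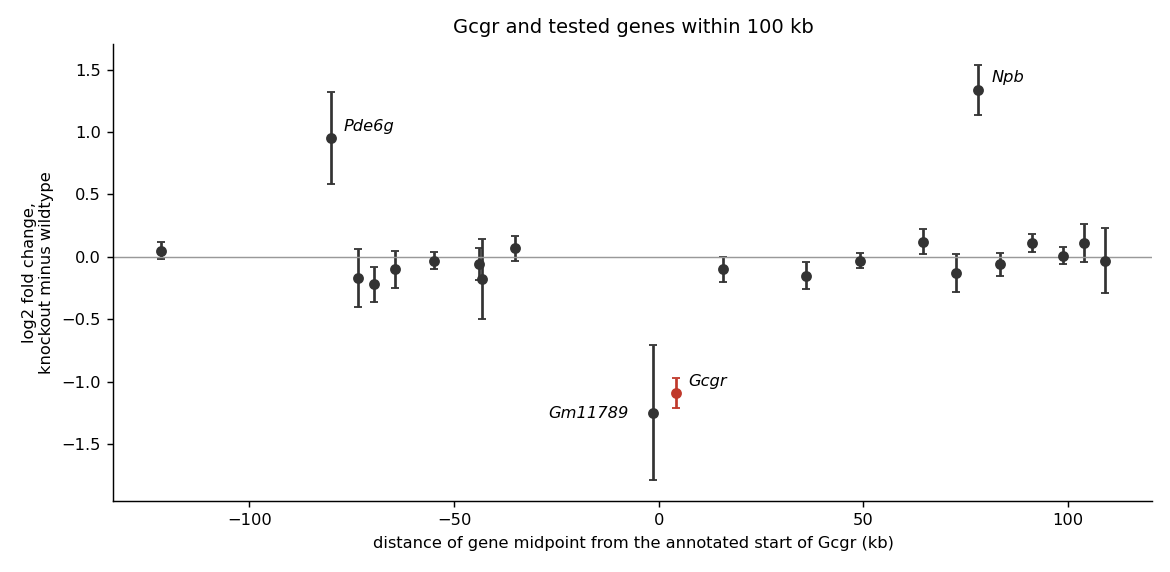
The x axis gives the distance of each tested gene's midpoint from the start of Gcgr in kb and the y axis its log2 fold change (knockout minus wildtype) ± SE. Gcgr in red at -1.09 and Gm11789 at -1.25 lie low, Npb at 1.34 and Pde6g at 0.95 lie high, and the other tested genes lie near 0.

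The genes most like Gcgr were sought among 13129 tested genes with a mean of at least 5 CPM. Over the plain log2 CPM of 8 libraries, the highest Pearson correlations were those of Rhpn1 (0.984), Dusp9 (0.979), Pvalb (0.978), Lamb1 (0.974) and Pla1a (0.972). All 5 had negative log2 fold changes, of -0.75, -0.69, -2.01, -0.28 and -0.36, so these correlations share the difference between the groups. After subtracting each group's mean the highest were Eif4enif1 (0.977), 1810059H22Rik (0.961), Rybp (0.955), B330016D10Rik (0.954) and Pla1a (0.951), with Pla1a on both lists. Of the other members above 5 CPM, Ptger3 was the nearest by this measure at 0.765, and the remaining 5 lay from -0.161 to 0.379. With 8 libraries and 13129 genes such values are a description only.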

How the data were processed

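Expression was measured by RNA-seq of total RNA from whole kidneys, with a strand-keeping kit per the labels' protocols. The submitters' processing notes name Salmon, DESeq2 1.14.1 and mm10, with no annotation release given in the sources used here. As deposited by the authors, the files hold estimated counts per gene, already whole numbers and without gene names, and TPM values per gene with identifiers. The count table carries no names, so its 47729 rows took the 47729 different identifiers of the TPM table in the same order, after the second row of 2 repeated identifiers was dropped. In 13251 genes with 50 or more counts per library, count over TPM on a log2 scale varied across libraries by a median SD of 7.4e-04, against 0.281 with rows shifted by 1. No column was left out.

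Genes were filtered with filterByExpr, scaled with TMM factors and tested with edgeR 4.0.16 in R 4.3.3 (quasi-likelihood, robust, two-sided, genotype alone) with Benjamini-Hochberg adjustment over 18548 genes and a threshold of 0.05. The procedure was tested on simulated data, drawn with the dispersions of the same fit and without outlying libraries, so such libraries were not covered. SE is the log2 fold change over the root of F. Coordinates are GENCODE's (GRCm38, the assembly of mm10), promoters RefSeq's (GRCm38.p6).

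The 8 genes and all lists were chosen with earlier results of these data known. Named were all 8, from each list up to 4 genes past the threshold or else the 2 with the smallest p, the 5 genes most like Gcgr by each measure, and genes within 100 kb of it. Where another gene is named, it was picked after its values were seen. Alternatives were 3 other scalings, 2 other filters, DESeq2 1.42.0, limma-voom (limma 3.58.1), limma on log2(TPM + 1) and log2(TPM + 0.1), the replicate number as a block, each library left out, and the 2 libraries with abundant Xist reads left out.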

Additional observations from a re-analysis of the deposited data

Results flagged for a closer look

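Pth1r in knockout 3 measured 433 CPM, while the other 3 knockout libraries lay between 389 and 394 CPM. The gap to the nearest of them was 0.890 of the whole range of the group, above Dixon's 95% critical value for 4 samples. Of 16 groups of 4 values looked at, 1 held such a library, and chance gives about 1 in 20. Without knockout 3 the log2 fold change of Pth1r was -0.17.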

How the results depend on the processing

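Gcgr kept its direction under all 19 alternatives, with log2 fold changes of -1.22 to -1.0, and stayed past the threshold under 17. It lost the call with the replicate block (-1.10) and without the 2 libraries with abundant Xist reads (-1.10), a fit with fewer samples. As the gene was chosen with this contrast known, these counts are a description of the settings. The replicate numbers did not pair the samples: the deviations of same-numbered libraries correlated at 0.051, -0.096, 0.054 and 0.032, and 1 of 4 matched its own number best. With the block 10 genes passed in all and Slc12a3 was still the 1 listed pathway gene. Of all genes 15 passed as reported, 27 with no filter on low counts, 154 with DESeq2, 6 with limma on either log2 TPM scale and 3 without the 2 libraries with abundant Xist reads. Leaving out 1 library gave 10 to 52, with 29 without knockout 3 and 52 without wildtype 4. Of the listed pathway genes 1 passed in each of these 8 fits, 2 with DESeq2, and 0 with limma on either TPM scale or without the 2 libraries with abundant Xist reads. Calls of Slc12a3 were lost in those last 3 fits. On the TPM scales the median log2 fold change of all genes was -0.106 with 1 added and -0.141 with 0.1 added, against 0.001 as reported. Avpr2 changed sign under 3 alternatives, Avpr1a under 2 and Adcy6 under 1, and Pth1r, Casr, Calcr and Ptger3 under none. Casr ran from 0.16 to 0.48, Calcr from 0.12 to 0.83 and Ptger3 from -0.27 to -0.04, the last without wildtype 4. Creb3l1 read -0.02 on both TPM scales and Vipr1 ran from -2.94 to 0.62 over fits without 1 library, with 0.62 without wildtype 4. The cause of these changes was not tested.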
